A study of Homo sapiens with 6 samples.

Results

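Peaks of 82-kDa ChAT and of SATB1 were compared in vehicle-treated cells, by position and by the genes they touched. The members were every peak of the vehicle lists on chromosomes 1 to 22 and X: 7044 for 82-kDa ChAT and 2792 for SATB1, 9836 together of the 21943 peaks on these chromosomes in all 4 lists of the series. Peaks on other sequences (1226 and 273) were left out. Chromatin immunoprecipitation with sequencing (ChIP-seq) was done on human SH-SY5Y neuroblastoma cells that stably express 82-kDa ChAT from a transgene. The cells were differentiated for 3 d with retinoic acid and then given vehicle (Ham's F-12 medium), or 100 nM amyloid-beta1-42 oligomers in the treated arm, for 4 h. There were 3 plates for each treatment but 1 library for each protein and treatment, and both vehicle lists were called against the same input, so the differences below are descriptions with no test. Every cell expressed the transgene, so a level of SATB1 binding without it is not part of the comparison. The read depth of the libraries is unknown from the peak lists. The intervals given are exact 95% intervals that cover counting error only, and neighbouring peaks and overlapping genes are not independent counts.

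Choline acetyltransferase (ChAT) makes the transmitter acetylcholine, and its 82-kDa form carries an N-terminal extension with which it concentrates in the nucleus of cholinergic neurons. SATB1 is a nuclear protein that binds AT-rich stretches of DNA where the double helix unpairs readily, holds them at the nuclear matrix and folds chromatin into loops. Such stretches, the scaffold or matrix attachment regions, lie mostly outside exons.

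High-scoring intragenic peaks of each kind are printed so that their sequence can be read beside the counts that follow, all from the plus strand of hg38 and at most 300 nt long. In the peaks found with 1 protein alone, capitals mark TCCAT or TCCCAT on either strand (ATGGA or ATGGGA when read on the plus strand), the kind of motif that the study's own search returned. Those with 82-kDa ChAT alone lay in intron 8 of NSUN6, an RNA methyltransferase gene (chr10:18566404-18566649, score 214.22), and in intron 18 of ACSL5, an acyl-CoA synthetase gene that overlaps ZDHHC6 there (chr10:112425782-112425838, score 202.78). The one with SATB1 alone lay in intron 8 of RNF13, a ubiquitin ligase gene that overlaps ANKUB1 (chr3:149927988-149928041, score 142.70). The SATB1 peak in intron 4 of CHAT, the gene that encodes ChAT itself, is added (chr10:49621956-49622066, score 63.58).
NSUN6, 82-kDa ChAT alone: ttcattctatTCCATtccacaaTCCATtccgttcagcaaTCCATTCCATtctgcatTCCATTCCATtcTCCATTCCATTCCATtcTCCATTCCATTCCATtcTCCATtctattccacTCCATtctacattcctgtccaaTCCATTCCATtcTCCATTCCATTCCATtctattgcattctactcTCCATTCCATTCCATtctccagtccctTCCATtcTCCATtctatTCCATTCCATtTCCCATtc
ACSL5 and ZDHHC6, 82-kDa ChAT alone: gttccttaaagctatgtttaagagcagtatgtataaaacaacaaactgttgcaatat
RNF13 and ANKUB1, SATB1 alone: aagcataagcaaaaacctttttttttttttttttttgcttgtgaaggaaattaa
CHAT, SATB1 alone: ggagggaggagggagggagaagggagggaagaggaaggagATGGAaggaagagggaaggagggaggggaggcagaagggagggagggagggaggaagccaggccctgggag

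The NSUN6 peak held 27 matches and consisted largely of CATTC repeats and close variants of them, whereas the ACSL5 peak held none. G+C was 22.2% in the RNF13 peak, which held no match. The CHAT peak was a purine-rich stretch with 65.8% G+C. Where peaks of both proteins overlapped, the 82-kDa ChAT peak is printed and capitals mark the nucleotides that also lay in the SATB1 peak. The pair in KCNK2, a background potassium channel gene, is shown (chr1:215077671-215077761, scores 112.90 for 82-kDa ChAT and 112.44 for SATB1). Added after their values were seen were the strongest pair by the lower of its 2 scores, among 82-kDa ChAT peaks of at most 300 nt, in PTPRN2, intron 12 (chr7:157847419-157847656, scores 86.57 and 62.98), and in a zinc finger gene of chromosome 19, intron 4 of ZNF480 (chr19:52321280-52321383, scores 78.34 and 66.92).
KCNK2, both: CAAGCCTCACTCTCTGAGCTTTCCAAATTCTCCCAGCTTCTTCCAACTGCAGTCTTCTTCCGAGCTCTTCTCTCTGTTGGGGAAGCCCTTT
PTPRN2, both: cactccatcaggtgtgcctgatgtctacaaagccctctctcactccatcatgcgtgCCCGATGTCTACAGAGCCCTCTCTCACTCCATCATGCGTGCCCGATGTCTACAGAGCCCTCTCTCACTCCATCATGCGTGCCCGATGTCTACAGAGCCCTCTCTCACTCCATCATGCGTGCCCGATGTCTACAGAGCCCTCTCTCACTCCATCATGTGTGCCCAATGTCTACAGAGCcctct
ZNF480, both: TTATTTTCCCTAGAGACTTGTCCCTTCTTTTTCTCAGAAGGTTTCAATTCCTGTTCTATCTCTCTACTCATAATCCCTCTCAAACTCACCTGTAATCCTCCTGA

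The SATB1 peak covered the whole of the 82-kDa ChAT peak in KCNK2 (91 nt) and in ZNF480 (104 nt), and 177 of 238 nt in PTPRN2. The PTPRN2 stretch was a tandem repeat, and 73.9% of its 51-mers occurred more than once in the genome, against 0% in ZNF480 and KCNK2.

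The lists differed in size much more than in the strength or width of their peaks. The score of a peak is 10 times the negative log10 of its p-value, and its lowest value was 50.02 in both lists. The median score was 65.3 for 82-kDa ChAT and 65.8 for SATB1, and the highest was 3100 and 484. The median peak length was 136 nt and 129 nt.

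Peaks that shared 1 nt or more with a peak of the other protein numbered 643 for 82-kDa ChAT (9.13%, interval 8.47 to 9.83) and 629 for SATB1 (22.5%, 21.0 to 24.1). In the 650 pairs the median shared stretch was 126 nt and the shorter peak was, at the median, covered over 100% of its length. Asking for 50% of the shorter peak left 22.3% of SATB1 peaks, and allowing a gap of 200 nt gave 23.4%. For 82-kDa ChAT these rules gave 627 and 721 peaks. The overlapping 82-kDa ChAT peaks were the stronger ones: 5.22% (4.23 to 6.37) of the 1761 lowest-scoring peaks overlapped SATB1, and 16.9% (15.2 to 18.8) of the 1761 highest-scoring. For SATB1 the share was 22.8% (19.7 to 26.1) of its 698 lowest-scoring peaks and 30.1% (26.7 to 33.6) of its 698 highest-scoring, and lower in between, down to 17.3%. With the 82-kDa ChAT list brought to the size of the SATB1 list by keeping its 2792 highest-scoring peaks, 13.2% (11.9 to 14.5) of SATB1 peaks still overlapped it.

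The 2163 SATB1 peaks that overlapped no 82-kDa ChAT peak lay a median of 143 kb from the nearest. Within 1 kb there were 42 of them (1.94%, 1.40 to 2.62), where an even spread of the 82-kDa ChAT peaks over each chromosome gives 0.591%. Within 10 kb there were 184 (8.51%, against 5.04%) and within 100 kb 895 (41.4%, against 39.0%). Beyond the overlapping pairs, the excess over an even spread was thus seen mostly at distances of up to 10 kb.

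Peaks found with 1 protein alone differed in 3 features of their DNA. Pentamer-rich peaks, with at least 3 copies of CATTC per 100 nt on either strand, a repeat typical of satellite DNA, made up 11.1% of the 6401 peaks with 82-kDa ChAT alone (709 peaks) and 0.740% of the 2163 with SATB1 alone (16 peaks). Among overlapping peaks they were 17.6% on the 82-kDa ChAT side and 17.3% on the SATB1 side (109 peaks). Over the whole lists they were 11.7% of 82-kDa ChAT peaks and 4.48% of SATB1 peaks (125 peaks). Most pentamer-rich SATB1 peaks thus overlapped 82-kDa ChAT, whose list is 2.52 times as long, and few had SATB1 alone.

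The 5 Mb nearest the chromosome ends make up 7.59% of the chromosomes' length. They held 15.2% (14.3 to 16.1) of peaks with 82-kDa ChAT alone and 17.1% (14.3 to 20.2) of those overlapping SATB1, but 8.00% (6.89 to 9.22) of peaks with SATB1 alone. Without pentamer-rich peaks the shares were 16.5% and 7.92%, and without multi-copy peaks 12.3% and 7.20%. After amyloid-beta the shares for the whole lists were 9.36% (8.66 to 10.1) for 82-kDa ChAT and 8.84% (8.12 to 9.59) for SATB1, against 15.4% and 10.0% in vehicle.

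Multi-copy peaks, in which more than 50% of the 51-mers occur more than once in the genome, ran the other way. They were 31.3% (29.3 to 33.3) of peaks with SATB1 alone, 17.9% (16.9 to 18.8) of those with 82-kDa ChAT alone and 24.0% of 82-kDa ChAT peaks that overlapped SATB1. The share of reads that could be placed at such sites is not in the peak lists, and its part in these values was not tested.

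**Figure D1:**
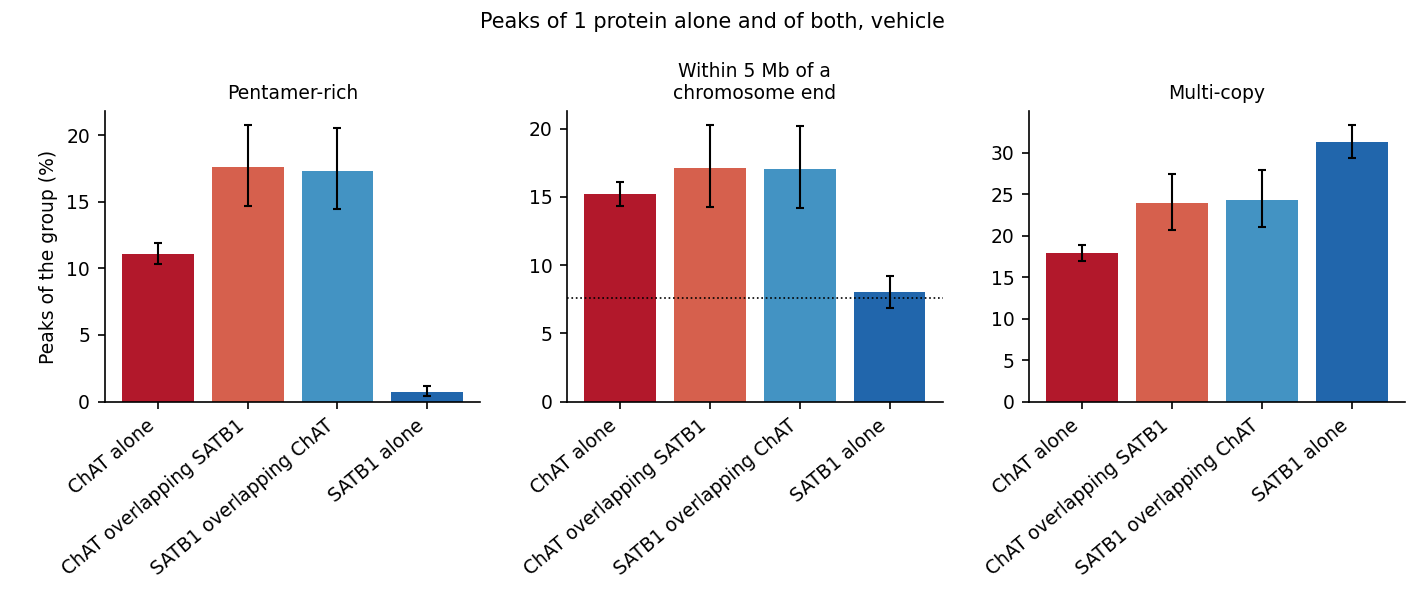
Share of peaks (%) that are pentamer-rich, that lie within 5 Mb of a chromosome end, and that are multi-copy, for peaks with 82-kDa ChAT alone (n = 6401), 82-kDa ChAT peaks overlapping SATB1 (n = 643), SATB1 peaks overlapping 82-kDa ChAT (n = 629) and peaks with SATB1 alone (n = 2163), vehicle. Bars are shares and lines exact 95% intervals; the dotted line marks the 7.59% of chromosome length that the ends take up, which the SATB1-alone bar (8.00%) meets and the other bars (15.2% and above) exceed.

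The base composition differed little. The median G+C was 41.2% in peaks with 82-kDa ChAT alone, 39.7% in peaks with SATB1 alone and 41.9% in overlapping 82-kDa ChAT peaks, and 40.9% in the genome. A match to TCCAT or TCCCAT on either strand was present in 37.4% of peaks with 82-kDa ChAT alone and 33.0% of those with SATB1 alone. Genome tiles of the same median length (135 and 125 nt) held a match in 33.7% and 31.7%. Without pentamer-rich peaks the shares were 30.0% and 32.8%, below or near those of the tiles, and the density of matches was 0.424 and 0.387 per 100 nt against 0.330 in the genome. The larger share in the 82-kDa ChAT list was therefore carried by its pentamer-rich peaks.

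Neither protein favoured the starts of genes. The 2000 nt upstream of protein-coding transcription starts, which are 2.51% of the assembled sequence, were touched by 1.92% (1.61 to 2.26) of 82-kDa ChAT peaks and 1.40% (0.995 to 1.90) of SATB1 peaks. Within 1 kb of a start lay 94 peaks of 82-kDa ChAT (1.33%, 1.08 to 1.63) and 23 of SATB1 (0.824%, 0.523 to 1.23). First introns, 8.97% of the sequence, held 7.54% and 6.55%, and exons, 2.85% of it, held 2.73% and 2.29%. The median distance to the nearest start was 72.1 kb for peaks with 82-kDa ChAT alone and 95.1 kb for those with SATB1 alone.

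Of 19970 protein-coding genes, 2108 (10.6%) held a peak of 82-kDa ChAT and 965 (4.83%) a peak of SATB1. Both proteins were found in 478 genes (2.39%), 82-kDa ChAT only in 1630 (8.16%), SATB1 only in 487 (2.44%) and neither in 17375. Genes with both were 22.7% of the genes with 82-kDa ChAT and 49.5% of those with SATB1. Most genes with 82-kDa ChAT only held a single peak (1358 of 1630), as did those with SATB1 only (455 of 487).

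Gene length separated these groups. The median length was 22.5 kb for genes with neither protein, 103 kb with 82-kDa ChAT only, 114 kb with SATB1 only and 240 kb with both. In 20 bins of equal gene number, from the shortest to the longest genes, the share of genes with 82-kDa ChAT went from 0.801% to 53.7% and that with SATB1 from 0.100% to 31.4%. Per Mb of gene the 82-kDa ChAT peaks thinned out with length, from 3.03 in genes under 10 kb to 1.92 in genes of at least 1 Mb, whereas SATB1 went from 0.664 to 0.836. There were 4.56 peaks of 82-kDa ChAT per SATB1 peak (2.63 to 8.40) in the shortest class and 2.29 (1.76 to 3.01) in the longest. The shortest class rests on 73 and 16 peaks. Its lower bound is at the 2.63 over all protein-coding genes, and the 2 intervals overlap, so its lean towards 82-kDa ChAT did not clearly exceed counting error.

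**Figure D2:**
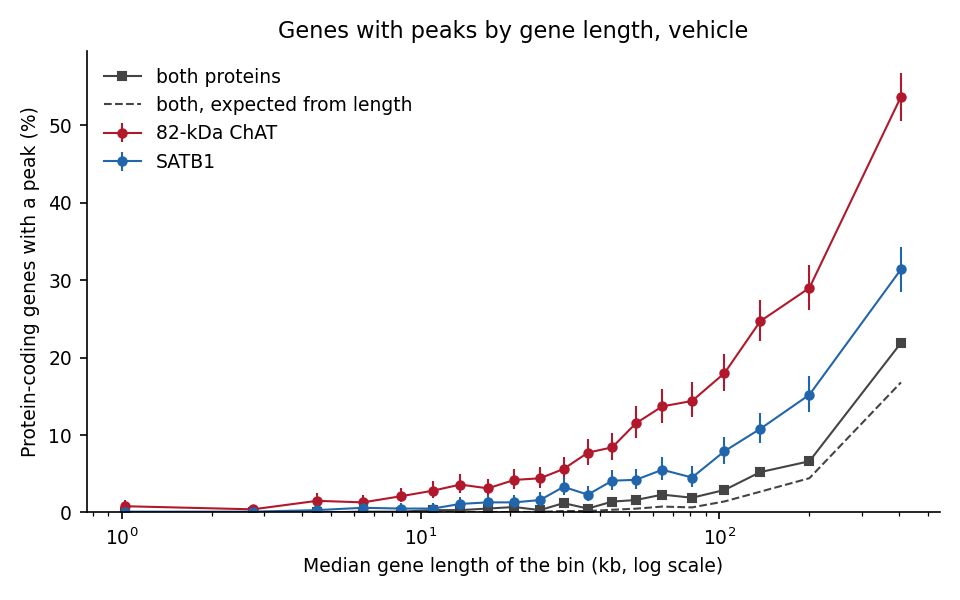
Share of protein-coding genes with a peak (%) against the median length of the gene bin (kb, log scale), for 82-kDa ChAT, SATB1 and both proteins in vehicle cells; about 1000 genes a bin, lines exact 95% intervals, dashed line the share with both that gene length alone gives. The observed share with both lies above the dashed line in the longest bin (21.9% against 16.8%).

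At equal list size the proteins touched about as many genes. As deposited, there were 2.52 times as many peaks of 82-kDa ChAT as of SATB1 and 2.18 times as many genes. If 2792 of the 7044 peaks of 82-kDa ChAT were kept, an exact formula gives 975 genes on average, 1.01 times the 965 of SATB1. The 2792 highest-scoring peaks touched 905 genes. At this size, 646 genes had 82-kDa ChAT only, 706 SATB1 only and 259 both. Protein-coding genes took 38.7% (37.5 to 39.8) of all 82-kDa ChAT peaks and 37.1% (35.3 to 38.9) of SATB1 peaks and make up 44.7% of the sequence, and long noncoding RNA genes took 15.8% and 15.3%. Relative to the list sizes, the density of 82-kDa ChAT over that of SATB1 was 1.04 (0.970 to 1.12) in protein-coding genes, 1.03 (0.923 to 1.16) in long noncoding RNA genes and 1.03 (0.749 to 1.42) in pseudogenes.

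Genes with both proteins outnumbered what gene length gives. If each gene had the share of its length bin for either protein, independently, 282 genes would hold both; the observed 478 were 1.70 times as many (1.55 to 1.86). Within the longest bin both proteins were found in 21.9% of genes against 16.8%. With the 82-kDa ChAT list at the size of SATB1, 259 genes stood against 131, or 1.98 times. A rate per nucleotide in place of the bins, which follows length within the longest bin, gave an expectation of 339 and 1.41 times (1.29 to 1.54).

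This excess lay mainly at places where the peaks themselves overlapped. Of the 478 genes, 257 held an overlapping pair and 221 did not. With all overlapping peaks left out of both lists, 242 genes held both proteins against 210 from length bins, 1.15 times (1.01 to 1.31). A rate per nucleotide was not run for this setting, so whether this remainder goes beyond gene length was not tested.

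PTPRN2 stood out among the genes with both (chr7:157539056-158587823, minus strand). It encodes a receptor-type tyrosine phosphatase relative of dense-core vesicles in neuroendocrine cells. It held 23 peaks of 82-kDa ChAT and 8 of SATB1, where 2.19 and 0.846 correspond to its length of 1049 kb. Of these, 6 peaks of each protein overlapped the other, in introns 1, 3, 6, 11 and 12. The 82-kDa ChAT scores ran from 50.77 to 682.90, with the highest in intron 6 over 2352 nt, and the SATB1 scores from 58.83 to 121.53, also highest in intron 6. PTPRN2 lies within the last 5 Mb of chromosome 7, and many of its peaks, like the printed one, were repetitive. In the amyloid-beta lists it held 6 and 8 peaks.

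TTC34, a tetratricopeptide repeat gene near the start of chromosome 1, held 7 peaks of 82-kDa ChAT and 3 of SATB1 in 165 kb, all in its intron 6 and none overlapping the other protein. Their G+C was 60.1 to 64.9%, far above the median of either list. The gene ENSG00000272297 on chromosome 4 held 6 and 3, of which 1 pair overlapped. The SATB1 peaks were multi-copy in both genes (85.9 to 100% of 51-mers in TTC34, 66.0 to 74.9% in ENSG00000272297). For 82-kDa ChAT the shares ran from 28.0 to 100% and from 0 to 100%. The others of the 8 genes ranked highest were FGGY, AGBL4, CNTNAP2, IL1RAPL1 and TRIO, each with at least 3 peaks of each protein.

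FGGY, a carbohydrate kinase gene, held fewer peaks of 82-kDa ChAT than of SATB1, 3 against 5 in 514 kb. Its length gives 1.07 and 0.415, so that both proteins were above it, as in PTPRN2. Its overlapping pair was in intron 14, with scores of 50.09 and 50.44. AGBL4, which encodes an enzyme that trims glutamate from tubulin, held 4 and 3 peaks in 1491 kb. TRIO held 3 and 3 with an overlapping pair in intron 1 (scores 92.26 and 91.17).

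The 2 adhesion genes in this group were near what their length gives for 82-kDa ChAT. CNTNAP2, whose product clusters potassium channels along axons, held 4 peaks of 82-kDa ChAT against 4.80 from its 2305 kb and 3 of SATB1 against 1.86. IL1RAPL1, a synaptic adhesion receptor, held 3 against 2.85 and 3 against 1.10.

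RBFOX3, which encodes the neuronal splicing factor NeuN, led the genes with 82-kDa ChAT only. Its 7 peaks, against 1.09 from its length of 522 kb, lay in introns 1, 2 and 4 with scores of 50.09 to 140.41. Then came 6 peaks each in ABR, COL4A2 (a basement membrane collagen), PCBP3 (an RNA-binding protein), SUGCT (a mitochondrial CoA transferase), TMEM132B and CSMD1 (a complement regulator of neurons). SDK1, an adhesion protein of synaptic layers, held 5. RBFOX3, ABR, COL4A2, PCBP3, SDK1 and CSMD1 lie within 5 Mb of a chromosome end. Such stretches held 15.4% of all 82-kDa ChAT peaks in 7.59% of chromosome length. The numbers that length gives take no account of position, and its part in this ranking was not tested.

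For COL4A2 (207 kb), ABR (226 kb) and PCBP3 (299 kb), length gives 0.432, 0.471 and 0.623 peaks, whereas for CSMD1 (2060 kb) it gives 4.29. Several of these peaks were neighbours within 1 kb of each other: the 6 peaks of COL4A2 lay in introns 3, 31 and 40, and those of PCBP3 in introns 4, 6 and 13, the highest scoring 245.72. The number of peaks therefore exceeds the number of separate places. Length gives fewer than 1 SATB1 peak for each of these genes except CSMD1 (1.66). Sequence with other copies in the genome made up 0 to 100% of the ABR peaks. In COL4A2 the share was 21.1 to 84.2% and in PCBP3 16.0 to 85.7%.

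SATB1 only was led by DNAH6, an axonemal dynein heavy chain, and GSE1, with 3 peaks each. The DNAH6 peaks lay in introns 1, 5 and 64 with scores of 91.17, 107.18 and 70.62, where length gives 0.244. Then came 2 peaks each in ATXN7L1, ERC2 (a scaffold of the presynaptic active zone), FMNL2 (a formin that elongates actin), GPM6A (a neuronal membrane glycoprotein), SLC7A13 and WASHC1, chosen among ties by their highest score. For 82-kDa ChAT, length gives 2 peaks in ERC2, a 961 kb gene where none was found, and at most 1.06 in the others. Both WASHC1 peaks were made only of sequence with other copies in the genome. WASHC1 and the GSE1 peaks also lie within 5 Mb of a chromosome end, whose part in this ranking was not tested.

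**Figure D3:**
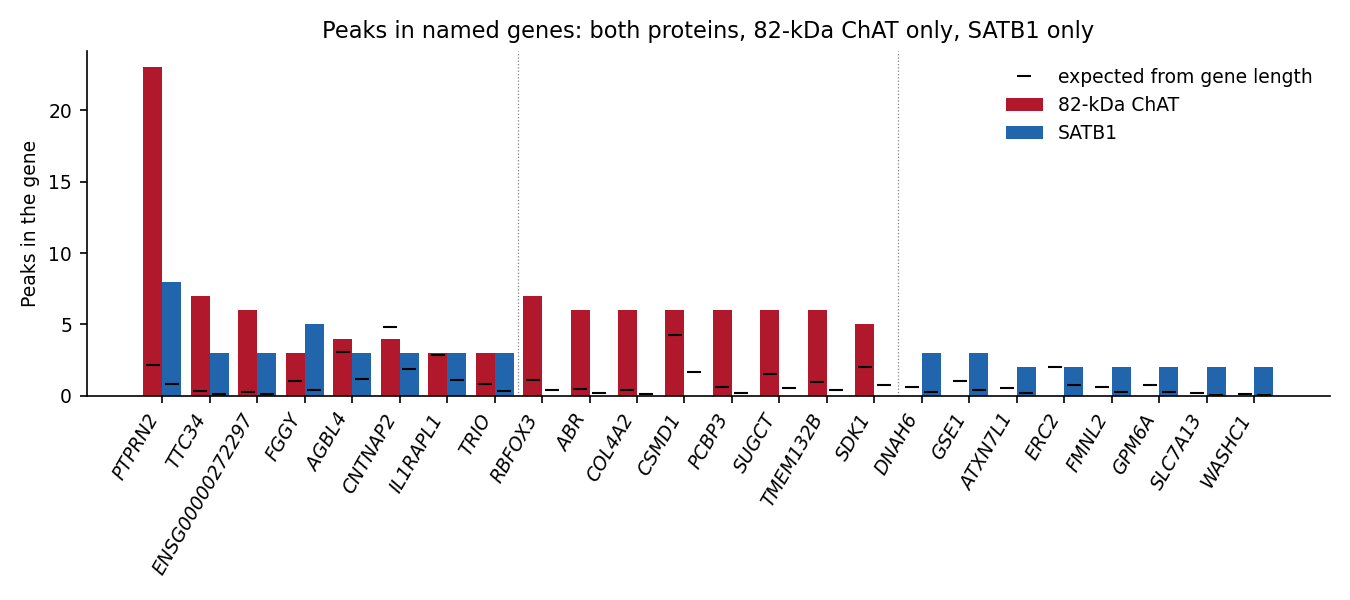
Number of peaks of 82-kDa ChAT (red) and SATB1 (blue) in 8 genes each with both proteins (left, ranked by the smaller of the 2 numbers), 82-kDa ChAT only (middle) and SATB1 only (right, both ranked by number of peaks), vehicle, 1 library a protein. Black ticks mark the number that gene length gives; PTPRN2 (23 and 8) is the highest for either protein, and CNTNAP2 and IL1RAPL1 stay near their ticks for 82-kDa ChAT.

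The genes that encode the proteins themselves held little. CHAT held no peak of 82-kDa ChAT and the single SATB1 peak printed above, and SATB1 held none of either. Length gives 0.123 and 0.209 peaks of 82-kDa ChAT in them.

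Gene lists of neuronal, stress and chromatin functions were read against gene length, since many of their members are long. Over the 14 lists, the genes with a peak were 0.597 to 1.34 times what length gives for 82-kDa ChAT and 0 to 1.99 times for SATB1. All 14 intervals included 1 for 82-kDa ChAT, and 13 of 14 for SATB1. The interval for the ratio of the densities of the 2 proteins, set against their ratio over all protein-coding genes, included 1 in each of the 13 lists with peaks of both. None of these 13 lists therefore separated the proteins beyond counting error at this number of peaks, and nuclear matrix and lamina, with 7 peaks against 0, has no such ratio.

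The exception for SATB1 was synaptic and neuronal adhesion, with a peak in 20 of 67 genes against 12.6 from length (1.59, 1.02 to 2.25). For 82-kDa ChAT it was 26 genes against 22.3 (1.16, 0.814 to 1.54). Its members are among the longest genes, and a rate per nucleotide in place of length bins gave 1.10 (0.711 to 1.56) and 0.852 (0.596 to 1.13). Both proteins were found in 13 of the 67 genes, against 6.26 expected by length bins and 14.1 by a rate per nucleotide, so that the side of the expectation depended on the length correction. Of these, 6 held an overlapping pair, among them CNTNAP2, the axonal adhesion genes CNTN4 and CNTN5, NEGR1, CLSTN2 and NFASC. In NFASC, which assembles the node of Ranvier, the pair lay at exon 10 and the intron after it, with scores of 58.16 and 64.53.

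Cadherins and unclustered protocadherins held 82-kDa ChAT in 15 of 44 genes against 11.2 and SATB1 in 10 against 5.83 (1.72, 0.866 to 2.86). CDH15, the muscle cadherin gene, held 4 peaks of 82-kDa ChAT and 1 of SATB1 in 23.7 kb, with 2 of the 4 overlapping the SATB1 peak in intron 5. Those 2 were neighbours and multi-copy (51.6% and 66.2% of 51-mers), as was the SATB1 peak (51.3%). CDH4, expressed in retina and brain, held 5 and 2, CDH13 held 6 and 1, and CDH18 held 5 and 1.

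Receptors and channels of the synapse showed no lean that exceeded counting error. Glutamate receptors held 82-kDa ChAT in 12 of 26 genes against 9.38 and SATB1 in 3 against 5.26 (0.570, 0.121 to 1.49), and all 3 of the latter also held 82-kDa ChAT. GABA receptors had 4 of 21 against 5.09 and 2 against 2.57. Potassium, calcium and sodium channels had 25 of 96 genes against 24.2 and 14 against 12.9. CACNA1C, an L-type calcium channel, held 6 and 2 peaks, with 2 overlapping pairs in introns 9 and 28. The pair in intron 9 was multi-copy (82.8% and 88.8% of 51-mers), and that in intron 28 was not (0% for both). Synaptic scaffold and vesicle release genes had 17 of 70 against 18.3 and 11 against 9.78, with 1 overlapping pair, in intron 11 of SHANK2. Axon guidance genes had 16 of 73 against 16.1 and 6 against 8.54.

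In the cholinergic list, 82-kDa ChAT was found in 2 of 32 genes against 3.31 and SATB1 in 3 against 1.51. SLC44A1, a choline transporter, held 3 and 2 peaks, and both SATB1 peaks overlapped 82-kDa ChAT, in intron 1 (scores 52.92 and 53.40) and outside the MANE reference transcript (70.69 and 82.28). CHRNB2, a nicotinic receptor subunit, held 82-kDa ChAT alone in intron 1 (score 84.73).

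The list of APP processing and binding had 8 of 35 genes against 7.08 and 4 against 3.50. SORCS2, a sorting receptor, held 6 and 2 peaks with an overlapping pair in intron 4 (scores 116.97 and 81.63). Heat shock, unfolded protein and oxidative stress genes had 4 of 66 against 5.15 and 1 against 2.22, and no gene with both. Programmed cell death genes had 8 of 61 against 6.44 and 3 against 2.80. BCL2L1, which encodes the survival factor BCL-xL, held an overlapping pair in intron 2 that began at the same base (scores 80.25 and 54.53).

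Chromatin remodelling and histone modifying genes had 18 of 107 against 18.4 and 10 against 8.66, with 6 genes holding both. Overlapping pairs were found in KDM4C, a histone demethylase (intron 4, scores 64.14 and 70.28), and EHMT1, a histone methyltransferase (intron 2, scores 70.42 and 54.53). Nuclear matrix and lamina genes, the structures to which SATB1 ties DNA, held 82-kDa ChAT in 6 of 28 against 5.71 and SATB1 in 0 against 2.89. Nuclear receptors had 5 of 48 for either protein, against 8.38 and 4.09. RARB, a retinoic acid receptor, held 5 and 1 peaks with 1 overlapping pair.

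Genes with both were more numerous than length gives in 11 of the 14 lists by length bins, and in 8 of 14 by a rate per nucleotide. Over all protein-coding genes the corresponding excess was 1.70 and 1.41 times.

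**Figure D4:**
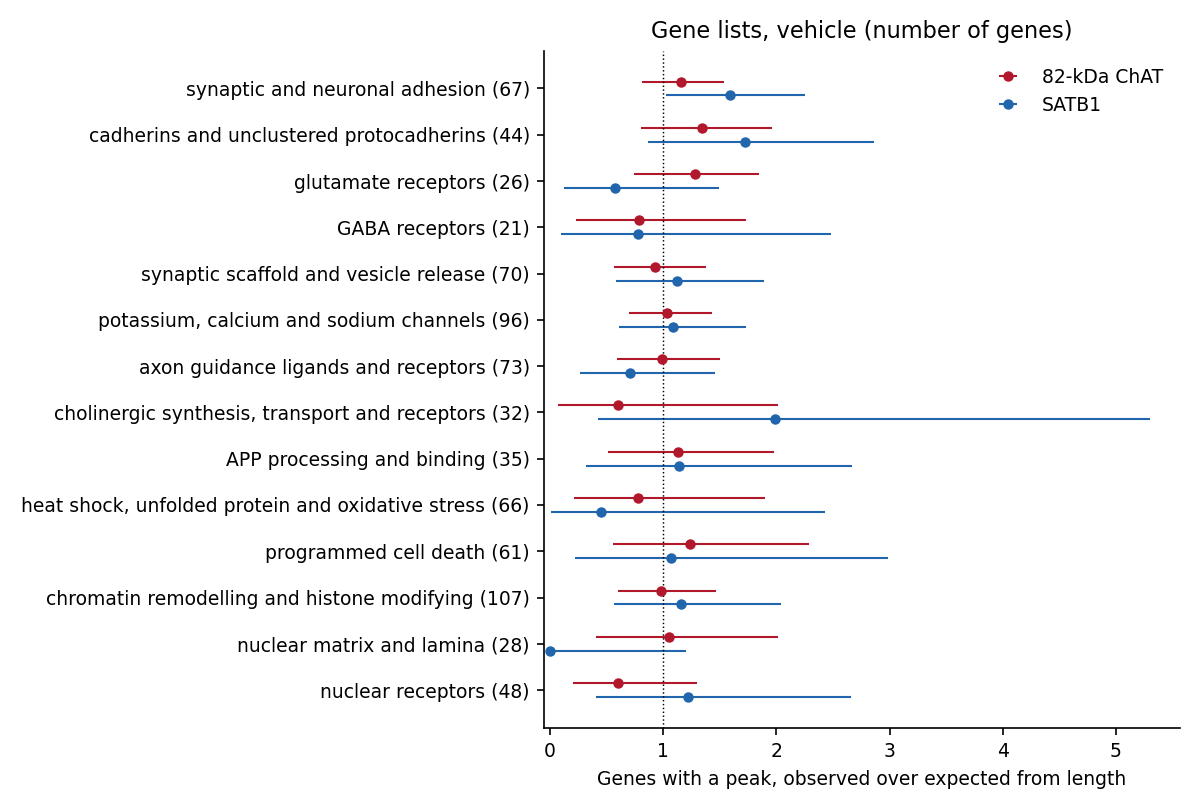
Genes with a peak over the number expected from gene length, for 14 gene lists (number of genes in brackets), 82-kDa ChAT in red and SATB1 in blue, vehicle. Points are ratios, lines exact 95% intervals, and the dotted line marks 1; the interval lies above 1 only for SATB1 in synaptic and neuronal adhesion (1.02 to 2.25).

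Gene families defined by their symbols were read in the same way. Zinc finger genes outside chromosome 19 held 82-kDa ChAT in 35 of 267 against 23.7 (1.48, 1.05 to 2.0) and SATB1 in 12 against 10.2 (1.18, 0.614 to 2.02). The intervals for the 2 proteins overlap. On chromosome 19, where zinc finger genes form clusters, 20 of 249 held 82-kDa ChAT against 15.5 and 10 held SATB1 against 6.22. Both were found in 6 of these, against 0.716 from length, and all 6 held an overlapping pair: ZNF383, ZNF480, ZNF71, ZNF773, ZNF814 and ZNF587.

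ZNF814 and ZNF587 overlap each other and share the same pair, so these are 5 places. ZNF71, ZNF773, ZNF814 and ZNF587 lie within 5 Mb of the chromosome end. The pairs lay in exon 6 of ZNF383 (scores 96.78 for 82-kDa ChAT and 62.96 for SATB1), intron 4 of ZNF480, intron 2 of ZNF71 (126.61 and 103.09) and exon 3 of ZNF587 (53.93 and 70.62). At most 4.97% of the 51-mers of these peaks occurred elsewhere in the genome.

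Olfactory receptors held 82-kDa ChAT in 8 of 400 genes against 6.79 and SATB1 in 4 against 1.89. Ribosomal protein genes held 82-kDa ChAT in 3 of 81 against 1.89 and SATB1 in 0 against 0.624. Among the 71 genes of at least 1 Mb, 61 held 82-kDa ChAT, 49 SATB1 and 42 both, at densities of 1.92 and 0.836 peaks per Mb, against 2.09 and 0.796 over all protein-coding genes.

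Near the chromosome ends both proteins were found in more genes than length gives. Of 2488 protein-coding genes within 5 Mb of an end, 309 held 82-kDa ChAT against 184 (1.68, 1.51 to 1.86) and 132 held SATB1 against 78.5 (1.68, 1.41 to 1.98). The ratio over genes was thus the same for both proteins there, although over all peaks 15.4% of 82-kDa ChAT and 10.0% of SATB1 lay in these stretches. The class was chosen after its values were seen.

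At promoters and exons, 310 of 19970 protein-coding genes had a peak of 82-kDa ChAT and 105 of SATB1. These lay in an exon or within 2000 nt upstream of a start. Of these genes, 30 had both, and in 26 of the 30 the peaks overlapped. No expectation from length was computed for these counts. Adjoining genes can share a pair, as BTBD18 and CTNND1 do, so the places are fewer than the genes. The 30 genes included CDK13 (a transcription kinase), MCU (the mitochondrial calcium channel), DYNC1H1 (the dynein heavy chain of axonal transport), CTNND1 (p120 catenin) and TLN2 (talin), each with an overlapping pair.

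By chromosome, there were 2.52 peaks of 82-kDa ChAT per SATB1 peak overall. The ratio was highest on chromosomes 21 (3.98), 17 (3.93), 19 (3.37), 16 (3.31) and 10 (3.26) and lowest on 14 (1.71), X (1.93), 5 (1.96) and 18 (1.98). The interval lay above the overall ratio on 4 of 23 chromosomes (10, 16, 17 and 21) and below it on 3 (5, 14 and X).

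Pentamer-rich peaks carried part of this. Without them the overall ratio was 2.33 and that of chromosomes 21, 17 and 10 was 2.86, 2.87 and 2.58, while 19 (3.38) and 16 (3.22) kept theirs and 20 went from 2.08 to 1.49. The interval then lay above the overall ratio on 3 chromosomes (12, 16 and 19) and below it on 2 (14 and 20). Chromosome 7 had most genes beyond length for both proteins: 160 with 82-kDa ChAT against 117, 83 with SATB1 against 55.4, and 48 with both. No expectation by chromosome was computed for genes with both. The copy number of chromosomes in these cells was not taken into account, and its part in these values was not tested.

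**Figure D5:**
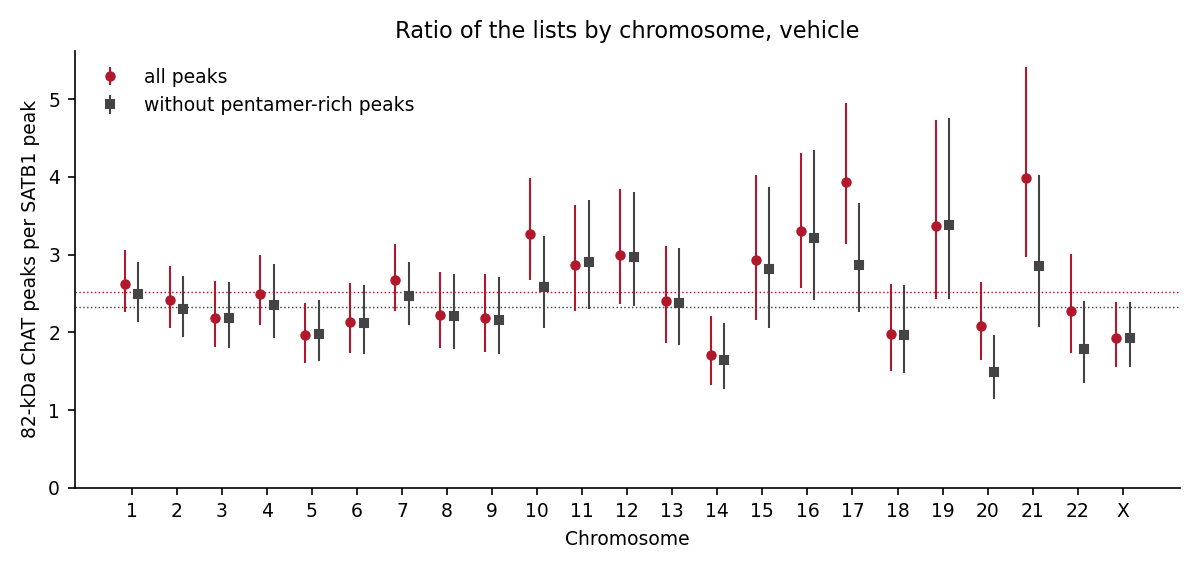
Peaks of 82-kDa ChAT per SATB1 peak on each chromosome, with all peaks (red) and without pentamer-rich peaks (grey), vehicle, lines exact 95% intervals, dotted lines the ratios over all chromosomes (2.52 and 2.33). Chromosomes 17 and 21 come down to 2.87 and 2.86 without pentamer-rich peaks, and chromosomes 16 and 19 stay above 3.

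After amyloid-beta, the vehicle places were seldom found again. Of peaks with 82-kDa ChAT alone in vehicle, 4.16% (3.68 to 4.67) overlapped the 82-kDa ChAT list of amyloid-beta cells, against 13.5% (11.0 to 16.4) of those shared with SATB1. Of peaks with SATB1 alone, 10 of 2163 (0.462%, 0.222 to 0.849) overlapped the SATB1 list of amyloid-beta cells, and of those shared with 82-kDa ChAT 35 of 629 (5.56%, 3.91 to 7.65). Places held by both proteins were found again more often in either list, and for SATB1-alone peaks the 82-kDa ChAT list returned more (1.57%, 1.09 to 2.19) than the SATB1 list did. The 82-kDa ChAT peaks shared with SATB1 also had higher scores in vehicle (median 76.7 against 65.1 for those alone), whose part in this was not tested.

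At the level of genes, 11.2% of all protein-coding genes held 82-kDa ChAT and 12.1% SATB1 after amyloid-beta. Genes with both proteins in vehicle held 82-kDa ChAT in 43.7% (1.18 times what length bins give, 1.06 to 1.31) and SATB1 in 40.6% (1.20, 1.07 to 1.33). Of these 478 genes, 219 were in the longest bin, which runs from 266 to 2474 kb. Genes with 82-kDa ChAT only held it again in 27.7% (1.13, 1.05 to 1.23). Genes with SATB1 only held SATB1 again in 25.5%, which is 1.02 times what length gives (0.863 to 1.18). In amyloid-beta cells 661 genes held both proteins against 591 from length bins, 1.12 times (1.04 to 1.21), against 1.70 times in vehicle cells. The SATB1 lists differ in size, with 5817 peaks after amyloid-beta and 2792 in vehicle. The vehicle ratio itself moved with list size, to 1.98 with 82-kDa ChAT at the size of SATB1. The part of list size in the lower ratio after amyloid-beta was not tested. All ratios of this paragraph rest on the bins. A rate per nucleotide gave 1.41 in place of 1.70 in vehicle cells and was not run with the amyloid-beta lists. Whether the small excesses here go beyond gene length was therefore not tested.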

How the data were processed

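ChIP-seq peak lists of 82-kDa ChAT and SATB1, 1 library each in vehicle cells, were used, with the amyloid-beta lists beside them. The authors mapped reads to hg38 with BWA, used MACS with a p-value threshold of 1e-05 for peak calling and removed peaks found in the input. The deposited score is the negative log10 of that p-value, multiplied by 10. The depth of the libraries is not given per library. Starts were converted to 1-based positions. Genes came from GENCODE 44, with introns numbered on the MANE Select transcript, where one exists. A gene held a protein if at least 1 nt of a peak touched it. Expected counts came from shares in 20 bins of equal gene number, and intervals were exact (Clopper-Pearson or Poisson, 95%). Multi-copy sequence was found with 51-mers of the assembly. Counts were made with pandas 2.3.3, numpy 2.4.6 and numba 0.67.0, intervals with scipy 1.17.1 and plots with matplotlib 3.10.9 (Python 3.11.15), and the steps were tested on simulated data. The peaks, genes and lists compared were chosen with earlier results of these data known.

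Named genes were the 8 with most peaks of either protein alone, the 8 with both proteins ranked by the smaller of the 2 numbers of peaks, in each list the 3 members with most peaks and every member with an overlapping pair, CHAT and SATB1, and genes with both proteins at an exon or within 2000 nt upstream, of which examples are printed. Printed sequences were the 2 highest-scoring intragenic peaks of each kind, limited by multi-copy share because the assembly used here carries no repeat masking. Some items chosen by these rules are not reported here. Alternatives covered the score, list size, repeats, chromosomes, gene bounds, length correction and overlap rule.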

Additional observations from a re-analysis of the deposited data

How the results depend on the processing

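The alternatives changed 1 choice at a time, so leaving out overlapping peaks was not combined with a rate per nucleotide. Genes with both proteins exceeded the expectation from length under all 11 alternatives tried, with a lower bound above 1 in each, but the size of the excess moved from 1.70 times. It was 1.90 with peaks at or above the median score, 1.98 with 82-kDa ChAT brought to the size of SATB1 by score, 1.95 over all annotated genes, 1.41 with a Poisson rate per nucleotide, 1.44 with such a rate for each chromosome and 1.15 without overlapping peaks. The 478 genes with both became 188 (score), 259 (list size by score), 250 (exact thinning) and 242 (without overlapping peaks). The 1630 genes with 82-kDa ChAT only became 933, 646 and 725 under the first 3 of these and 2522 over all annotated genes, where the 487 with SATB1 only became 757. These fell with the number of peaks and rose with the number of genes counted, by construction. The 22.5% of SATB1 peaks that overlapped 82-kDa ChAT became 17.7% (score), 13.2% (list size) and 19.5% (without pentamer-rich peaks). Of 280 recomputed values for gene lists, 8 moved outside their interval. A change of direction was counted only where the interval excluded 1. That held for SATB1 in synaptic and neuronal adhesion alone, and 0 of its 10 alternatives changed direction. Other ratios could cross 1 uncounted, as for 82-kDa ChAT in that list (1.16, and 0.852 with a Poisson rate per nucleotide). Bringing 82-kDa ChAT to the size of SATB1 leaves SATB1 list values unchanged by construction. The SATB1 value of synaptic and neuronal adhesion no longer had a lower bound above 1 with peaks at or above the median score (1.11, 0.521 to 1.97), with a Poisson rate per nucleotide (1.10, 0.711 to 1.56) and with such a rate for each chromosome (1.11, 0.716 to 1.57). Leaving out peaks by soft-masked share was not run, because the assembly used here is not soft-masked. The chromosome-end alternatives were chosen after seeing the data. No paired analysis was possible because there was 1 library for each protein. The number of peaks, not replicates, sets the precision throughout.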
